A study of Mus musculus with 12 samples.

Results

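Mpst, Tst, Ethe1, Suox, Cbs and Cth encode enzymes that make hydrogen sulfide or act in later steps of its oxidation. Their transcripts were followed in colon epithelium of mice labelled POR-null, for the cytochrome P450 reductase POR, or wild type, with or without dietary quercetin. The members were selected from a list of symbols matched to the array annotation, and all 6 listed genes were found, on 7 probe sets, out of 12393 named genes and 22626 probe sets in all. Mpst was put on the list for its lower signal in POR-null controls than in wild type (WT) controls, so that difference is a description and carries no test. Each of 12 Affymetrix 430A arrays received RNA of the scraped epithelial layer of colon pooled from 3 mice, with 3 arrays and so 9 mice in each of 4 groups. Values are the deposited normalized signals, taken as log2 units, so that a difference of 1 is a doubling.

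The groups were POR-null mice given quercetin, POR-null mice on control diet, WT mice given quercetin and WT mice on control diet. All were C57BL/6 males between 6 and 8 weeks of age, and all had 14 days on the same soya-free RM3 powder before the test diet. Quercetin, a plant flavonol, was mixed into that powder at 6200 ppm, about 7 mg per mouse, and tissue was taken after 24 h. As background, the line of this study is known as a hepatic null, in which a Cre driven by the albumin promoter deletes the reductase gene in hepatocytes, while the labels do not name the tissue. The deleted gene itself is not analysed here. The labels give no litter, day or cage for an array, so the spread between arrays is that between pools plus laboratory steps.

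Sulfide reaches the colonocyte from gut bacteria and from its own cysteine. Mpst moves sulfur from 3-mercaptopyruvate onto an acceptor from which thioredoxin can release hydrogen sulfide, while Cbs and Cth, the transsulfuration enzymes that turn homocysteine into cysteine, release it in side reactions. In mitochondria the quinone reductase Sqor oxidises sulfide to a persulfide, the dioxygenase Ethe1 oxidises glutathione persulfide to sulfite, the rhodanese Tst moves sulfane sulfur between sulfite, thiosulfate and glutathione, and Suox oxidises sulfite to sulfate and hands the electrons to cytochrome c. The epithelium that faces the colonic lumen is known for a high capacity of this oxidation.

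The promoter windows of Mpst and Cbs are shown because these were the only members with a probe set whose groups did not overlap in some comparison. Each window runs from 250 bases before to 50 bases after an annotated start, from RefSeq on GRCm38.p6, and 4 of the 6 members had at least 1 window in that table. Capitals mark matches, on either strand, to the letters GGGCGG of the GC box, CCAAT of the CCAAT box, TATAAA of the TATA box, GCGTG of the xenobiotic response element core, CACGTG of the E box or TGACNNNGC of the antioxidant response element core. No matches to different motifs shared bases in the windows shown.
Mpst, chr15:78406551-78406850, plus strand: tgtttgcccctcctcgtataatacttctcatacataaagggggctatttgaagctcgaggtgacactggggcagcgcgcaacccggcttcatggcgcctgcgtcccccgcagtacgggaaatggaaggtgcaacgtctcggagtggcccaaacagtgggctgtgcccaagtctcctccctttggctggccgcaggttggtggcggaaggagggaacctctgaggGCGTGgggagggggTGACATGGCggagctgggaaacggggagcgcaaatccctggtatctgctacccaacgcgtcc
Cbs, chr17:31637156-31637455, minus strand: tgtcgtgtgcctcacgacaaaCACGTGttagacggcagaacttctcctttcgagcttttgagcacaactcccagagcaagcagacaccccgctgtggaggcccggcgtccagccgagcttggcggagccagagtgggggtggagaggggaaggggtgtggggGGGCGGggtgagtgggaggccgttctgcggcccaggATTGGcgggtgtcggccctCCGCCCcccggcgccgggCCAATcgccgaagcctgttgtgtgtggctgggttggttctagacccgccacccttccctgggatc

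This Mpst window held 1 GCGTG and 1 TGACNNNGC, which occur in 32.4% and 12.4% of 32851 windows of the same length. The other 2 Mpst windows held 0 and 2 GCGTG, and none of the 3 held a GC box, CCAAT box, TATA box or E box. The Cbs window held 2 GC boxes, 2 CCAAT boxes on opposite strands and 1 E box, found in 35.7%, 37.4% and 7.15% of windows. GC boxes were also in both Ethe1 windows (1 and 3) and in the Suox window (5, of which 3 share end bases). These matches are letters in a window and were not set against any binding data.

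All 8 absorptive colonocyte markers and all 6 measured goblet cell markers lay above the upper quartile of every array, as the label of colon epithelium implies. So did 4 of 5 measured small intestine markers, Fabp2, Apoa1, Apoa4 and Slc5a1, and the mean of that list varied from 8.24 to 10.50 between arrays. Markers of other tissues varied too. Smooth muscle genes (7 measured) averaged 7.58 to 8.18 in POR-null quercetin arrays, 6.15 to 8.13 in POR-null control arrays, 6.34 to 10.41 in WT quercetin arrays and 5.71 to 6.12 in WT control arrays. B and plasma cell genes (4 measured) averaged 6.68 to 7.80, 7.43 to 9.06, 7.29 to 8.69 and 6.12 to 8.00 in the same order of groups. Pancreatic acinar genes (7 measured) reached 10.41 in POR-null quercetin array 2 and 9.36 in WT control array 1, against 6.20 to 7.87 in the other arrays. WT control arrays 2 and 3 stood apart on the first principal component (23.7% of the variance), at 24.7 and 24.9, and POR-null control array 1 stood at the other end, at -24.2, while the remaining 9 arrays lay between -11.0 and 9.9. In pooled tissue of this kind fewer cells of a type and less RNA per cell cannot be told apart.

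Mpst was highest in WT mice on control diet and lower in each of the other groups. Its signals were 7.26, 7.49 and 6.82 in POR-null quercetin arrays, 7.21, 6.51 and 7.13 in POR-null control arrays, 7.33, 7.19 and 7.30 in WT quercetin arrays, and 7.67, 8.07 and 8.23 in WT control arrays. The 3 WT control arrays lay above all 9 others, and the other 3 groups overlapped. POR-null controls averaged 6.95 ± 0.38 against 7.99 ± 0.29 in WT controls (SD, n = 3 each), a log2 difference of -1.04, or 0.486 times. This is the contrast in which Mpst was picked, so nothing is read from its size.

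**Figure D1:**
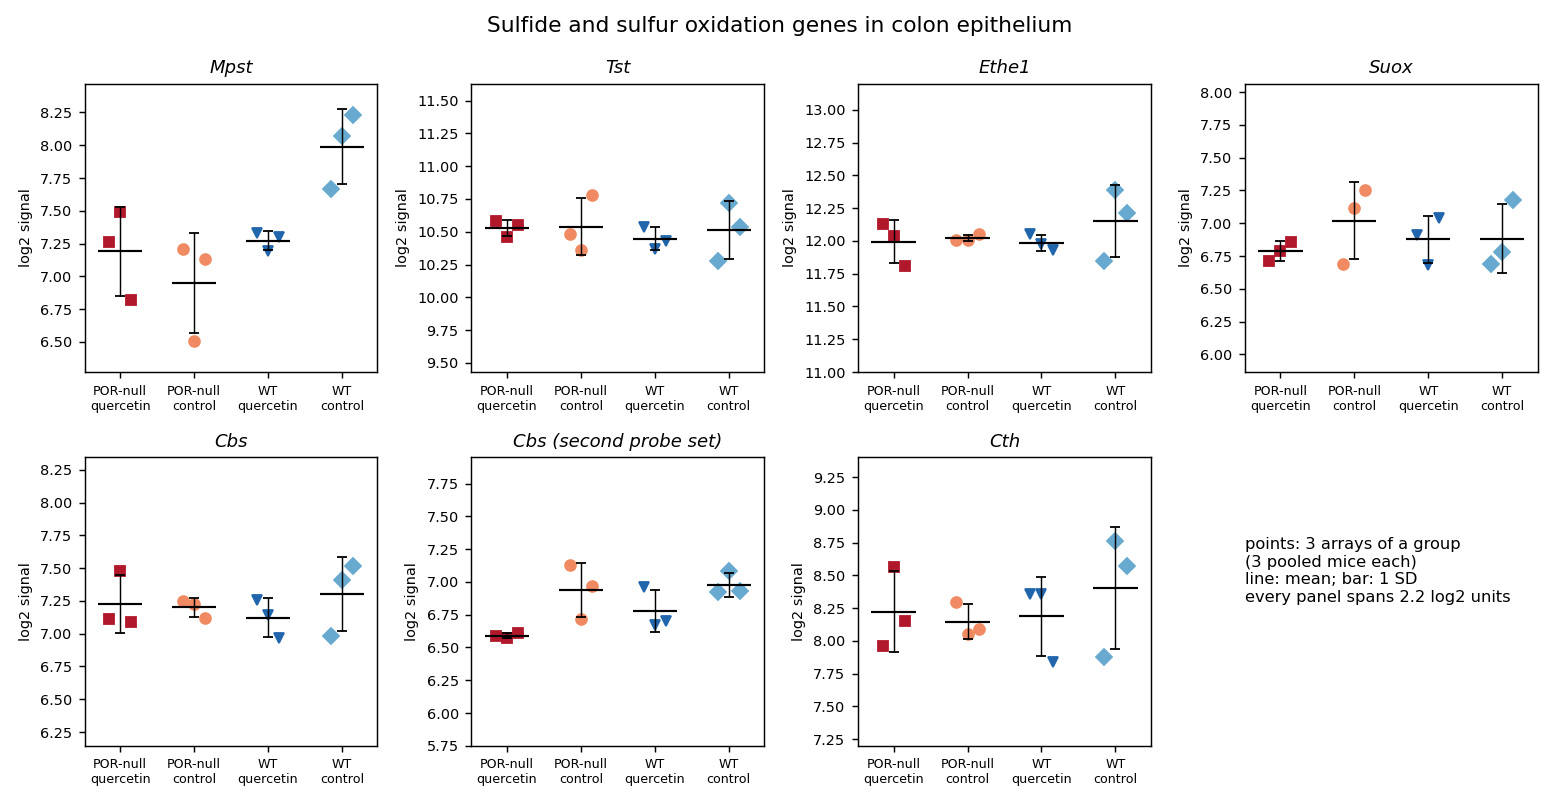
Log2 signal of each member by group, with 3 arrays a group as points, the mean as a line and 1 SD as a bar, and all panels spanning the same number of log2 units. Mpst stands at 7.67 to 8.23 in WT controls and at 6.51 to 7.49 in the other arrays, while group means of Tst, Ethe1, Suox and Cth differ by at most 0.26.

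The quercetin-fed arrays took no part in that choice, and in them the genotypes did not separate. Mpst averaged 7.19 ± 0.34 in POR-null quercetin arrays and 7.27 ± 0.07 in WT quercetin arrays (SD, n = 3 each), a log2 difference of -0.08 (SE 0.20, 95% interval -0.52 to 0.36). By limma the adjusted p was 0.998. A single array could turn the sign, since the difference was 0.10 without POR-null quercetin array 3 and -0.23 without POR-null quercetin array 2.

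The differences between diets share arrays with the choice of Mpst and are given as description. In WT mice the quercetin arrays averaged 7.27 and the control arrays 7.99, a difference of -0.72, and the arrays did not overlap. In POR-null mice the averages were 7.19 on quercetin and 6.95 on control diet, a difference of 0.24 with overlapping arrays. The difference of these differences was 0.96 (POR-null minus WT). WT quercetin and POR-null controls were both compared with the same 3 WT control arrays, so the lower values of both rest on that group.

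The level in WT controls was itself uneven. Array 1, with 7.67, carried pancreatic signal, and arrays 2 and 3, with 8.07 and 8.23, were the pair that stood apart on the first principal component. Without arrays 2 and 3 the log2 difference was -0.72 for POR-null controls and -0.40 for WT quercetin, each against WT control array 1 alone. Without POR-null control array 1 the difference between POR-null and WT controls was -1.17. Without the 2 arrays of highest pancreatic signal, WT control array 1 and POR-null quercetin array 2, the differences were -1.20 and -0.88.

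Several marker lists of other cell types ran against Mpst. Over 12 arrays Mpst correlated with the smooth muscle mean at r = -0.53, with fibroblast genes at -0.65 and with macrophage and dendritic cell genes at -0.65. With endothelial genes r was -0.64 and with B and plasma cell genes -0.55. It was -0.42 for goblet cell genes, -0.10 for T cell genes and 0.00 for colonocyte genes. Positive r were found for enteroendocrine (0.39), hepatocyte (0.35), pancreatic acinar (0.32) and small intestine genes (0.31). Other members shared part of this, since r with endothelial genes was -0.71 for Ethe1, -0.75 for Cbs and -0.67 for Cth. It was -0.15 for Tst and -0.13 for Suox. These are descriptions over arrays that share groups and tissue mix. The part of these cells in the Mpst values was not tested.

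**Figure D2:**
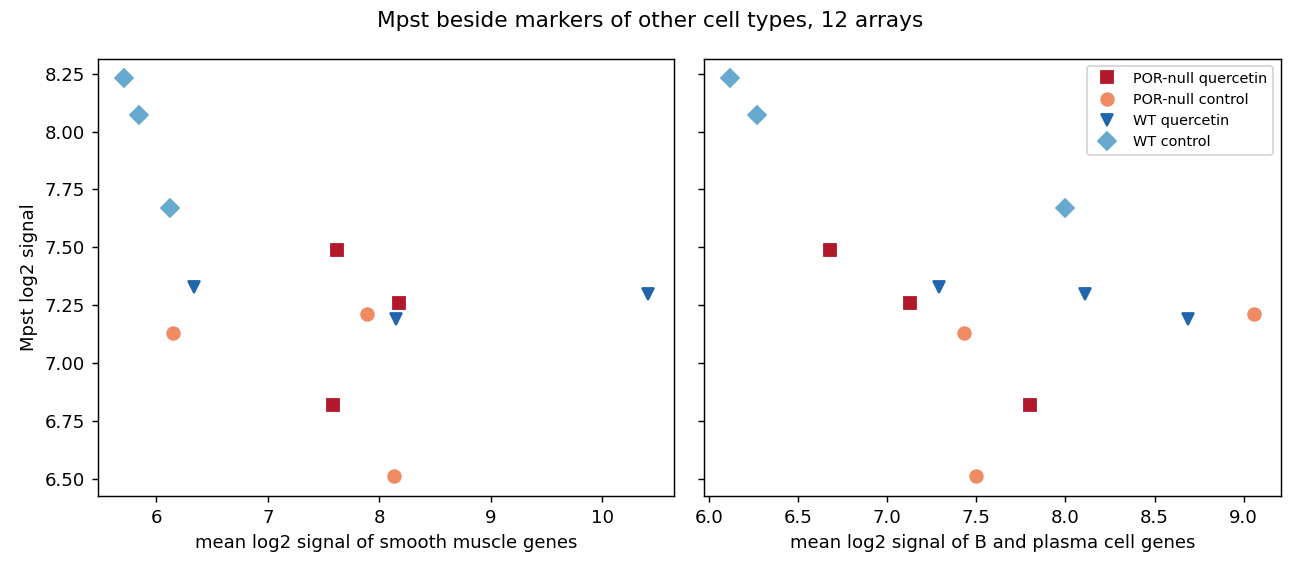
Mpst log2 signal (vertical) against the mean log2 signal of smooth muscle genes and of B and plasma cell genes (horizontal) in 12 arrays, marked by group. The 3 WT control arrays have the lowest smooth muscle means, 5.71 to 6.12 against 6.15 or more elsewhere, and WT control array 1 has a B and plasma cell mean of 8.00 with Mpst at 7.67.

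Genes whose pattern over the 12 arrays was most like that of Mpst were ranked among 15518 probe sets above the lower quartile of mean signal. Otc, the ornithine carbamoyltransferase of the urea cycle, came first with r = 0.95 (Spearman's rho 0.96), and within groups, after group means were taken out, r was 0.93. The complex I subunit Ndufc2, the mitochondrial aldehyde dehydrogenase Aldh1b1, Fem1a and the sialic acid hydroxylase Cmah followed at 0.89, 0.89, 0.89 and 0.88. Most opposed were the calpain Capn2 and the phosphatidate phosphatase Lpin1, both at -0.91, and the keratin Krt18 at -0.89. Other probe sets did not all share the pattern, with r of 0.04 and 0.38 for Otc at low signal, 0.64 for Ndufc2, 0.76 for Cmah, -0.06 for Fem1a and -0.55 for Lpin1.

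Otc showed the same order of groups as Mpst. It had 5.95, 6.35 and 5.49 in POR-null quercetin arrays, 5.97, 5.44 and 5.88 in POR-null control arrays, 6.15, 5.99 and 6.16 in WT quercetin arrays, and 6.29, 6.45 and 6.55 in WT control arrays. POR-null quercetin array 2 overlapped WT controls for Otc, which it did not for Mpst.

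Tst, the nearest gene to Mpst in the RefSeq order of its chromosome and a related sulfurtransferase, did not share the pattern. Its signals were 10.58, 10.46 and 10.55 in POR-null quercetin arrays, 10.48, 10.36 and 10.78 in POR-null control arrays, 10.54, 10.37 and 10.43 in WT quercetin arrays, and 10.28, 10.72 and 10.54 in WT control arrays. All 4 groups overlapped, and the group means differed by at most 0.09 with a pooled SD of 0.16. POR-null minus WT was 0.03 (SE 0.13, 95% interval -0.24 to 0.30) on control diet and 0.08 (-0.19 to 0.35) on quercetin, with adjusted p of 0.983 and 0.998 by limma. Tst and Mpst correlated at r = 0.22 over 12 arrays, which 4649 of the 15518 ranked probe sets exceeded. After group means were taken out r was 0.49. With the other members Mpst gave r of 0.61 (Ethe1), 0.55 (Cth), 0.50 (the brighter Cbs probe set) and -0.08 (Suox). Without the 2 arrays of most extreme Mpst these were 0.03, 0.07, -0.04 and -0.49, and r with Tst was -0.13.

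The next genes with a probe set on either side of Mpst gave no common shift. Kctd17, Il2rb and C1qtnf6 on the one side stood at 0.10, -0.05 and 0.09 (POR-null control minus WT control). The dim cytokine receptor subunits Csf2rb and Csf2rb2, beyond Tst on the other side, stood at 0.58 (SE 0.14) and 0.71 (SE 0.24), with adjusted p of 0.71 for both by limma, and at -0.07 and -0.09 on the quercetin diet. Both are genes of myeloid cells. The macrophage and dendritic cell markers averaged 6.28 to 6.68 in POR-null control arrays and 5.73 to 6.41 in WT control arrays. Any relation of these markers to the receptor subunits was not tested.

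Cbs, which joins homocysteine with serine, had 2 probe sets that behaved differently. The dimmer one had 6.59, 6.57 and 6.61 in POR-null quercetin arrays, 7.13, 6.72 and 6.97 in POR-null control arrays, 6.96, 6.67 and 6.70 in WT quercetin arrays, and 6.92, 7.08 and 6.93 in WT control arrays. The POR-null quercetin arrays were the lowest and overlapped no other group. Quercetin minus control was -0.35 in POR-null mice (SE 0.12, 95% interval -0.60 to -0.10, unadjusted p = 0.00989 and adjusted p = 1 by limma) and -0.20 in WT mice (-0.45 to 0.05), and the difference of these was -0.15 (SE 0.16). On quercetin, POR-null minus WT was -0.19 (-0.44 to 0.06).

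The brighter Cbs probe set did not show this. It had 7.11, 7.48 and 7.09 in POR-null quercetin arrays, 7.25, 7.23 and 7.12 in POR-null control arrays, 7.26, 7.14 and 6.97 in WT quercetin arrays, and 6.98, 7.41 and 7.52 in WT control arrays. All groups overlapped, and quercetin minus control was 0.03 in POR-null mice (SE 0.15) and -0.18 in WT mice (SE 0.15). The 2 probe sets correlated at r = 0.22 over 12 arrays.

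Cth, which splits cystathionine into cysteine, had 7.96, 8.56 and 8.15 in POR-null quercetin arrays, 8.30, 8.05 and 8.09 in POR-null control arrays, 8.36, 8.36 and 7.84 in WT quercetin arrays, and 7.88, 8.76 and 8.57 in WT control arrays. WT controls held nearly the whole range of the 12 arrays, from 7.88 to 8.76, and all groups overlapped. The largest difference was -0.26 for POR-null against WT controls (SE 0.22, 95% interval -0.73 to 0.22, adjusted p = 0.855 by limma). That difference depended on which WT control arrays were kept. It was 0.27 without arrays 2 and 3, which left array 1 alone in its group, and -0.52 without array 1.

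**Figure D3:**
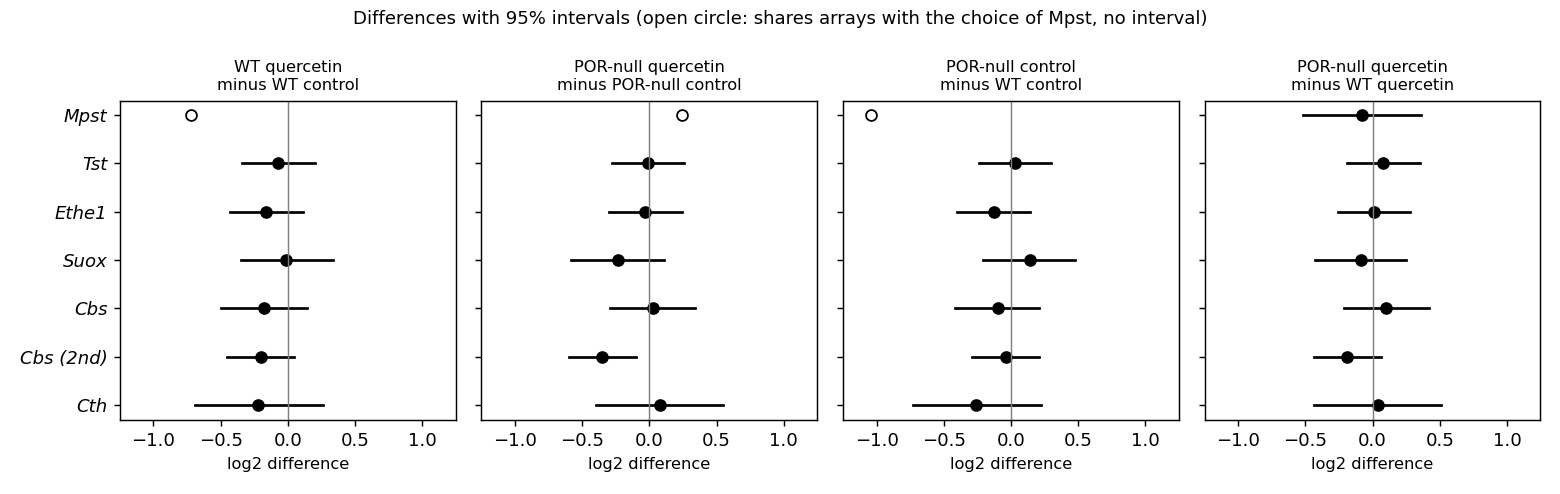
Log2 differences (horizontal) of the 7 member probe sets (vertical) in 4 comparisons, with 95% intervals of the limma fit, and without an interval for Mpst where the comparison shares arrays with its choice. Only the interval of the second Cbs probe set in POR-null mice, -0.60 to -0.10, lies on one side of 0.

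Across arrays the brighter Cbs probe set and Cth, successive steps of transsulfuration, varied together. Of 10 pairs among the 5 members other than Mpst, this one had the highest correlation, with r = 0.89 (permutation test with 100000 draws, p = 0.00011, adjusted over 10 pairs 0.0011) and Spearman's rho 0.89 (p = 0.00018, adjusted 0.0018; n = 12 arrays). After group means were taken out r was 0.90, and without the 2 arrays of most extreme Cbs it was 0.88. With each array left out in turn it lay between 0.86 and 0.92. Cth was 7th among 15517 probe sets ranked by correlation with Cbs, of which 0.0451% reached this r.

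That relation held for 1 of the 2 Cbs probe sets, since the dimmer one gave r = 0.31 with Cth. Both genes also correlated with endothelial genes (-0.75 for Cbs and -0.67 for Cth) and fibroblast genes (-0.68 and -0.64). For macrophage and dendritic cell genes r was -0.67 and -0.54, and for B and plasma cell genes -0.66 and -0.51. Enteroendocrine genes ran the other way, at 0.71 and 0.55. With the mean of each of 12 marker lists taken out of both genes, 1 list at a time, r lay between 0.79 and 0.89, which was lowest for the endothelial list. Ethe1 correlated with Cbs at r = 0.69 (permutation p = 0.0119, adjusted 0.0427, and rho 0.68, adjusted 0.081). With Cth its r was 0.68 (permutation p = 0.0128, adjusted 0.0427, and rho 0.56, adjusted 0.148). Ethe1 too ran against endothelial genes (-0.71) and macrophage and dendritic cell genes (-0.75). The permutations, also those for Cbs with Cth, shuffled all 12 arrays freely. Their p therefore take no account of shared groups or tissue mix and do not measure a link particular to a pair. Suox gave r between -0.09 and 0.33 with the other 4.

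**Figure D4:**
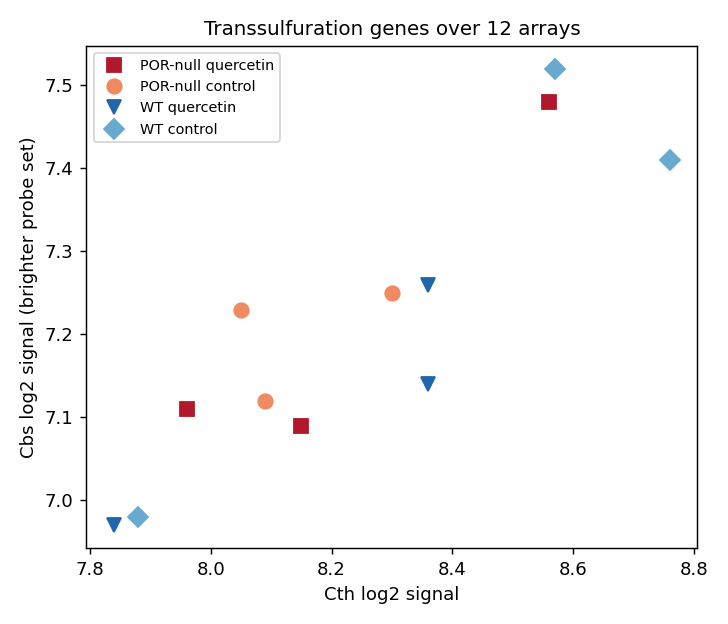
Log2 signal of the brighter Cbs probe set (vertical) against that of Cth (horizontal) in 12 arrays, marked by group. The lowest Cbs value, 6.97, stands with the lowest Cth value, 7.84, in WT quercetin array 3, and the highest, 7.52, with a Cth value of 8.57 in WT control array 3.

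Ethe1, the persulfide dioxygenase, was bright in every array. It had 12.13, 12.04 and 11.81 in POR-null quercetin arrays, 12.01, 12.01 and 12.05 in POR-null control arrays, 12.05, 11.98 and 11.93 in WT quercetin arrays, and 11.85, 12.39 and 12.21 in WT control arrays. All groups overlapped, and the 4 differences between groups ran from -0.16 to 0.01, with SE of 0.12 and adjusted p of 0.876 to 1 by limma. For POR-null against WT on quercetin the 95% interval was -0.26 to 0.28.

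Suox, the sulfite oxidase, had 6.71, 6.79 and 6.86 in POR-null quercetin arrays, 6.69, 7.12 and 7.25 in POR-null control arrays, 6.91, 6.68 and 7.04 in WT quercetin arrays, and 6.69, 6.78 and 7.18 in WT control arrays. All groups overlapped. Quercetin minus control was -0.23 in POR-null mice (SE 0.16, 95% interval -0.58 to 0.11) and -0.01 in WT mice (-0.35 to 0.34), and the difference of these was -0.23 (SE 0.23, adjusted p = 0.998 by limma).

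No member passed the threshold in any comparison. For quercetin in WT mice 0 of 7 member probe sets passed an adjusted p of 0.05 by limma, as did 0% of all probe sets. At an unadjusted p under 0.05 there was 1 (Mpst), against 5.15% of all, and 1, also Mpst, was lower without overlap, against 3.66% of all. The WT control arrays here took part in the choice of Mpst, so both counts are description only. For quercetin in POR-null mice 0 of 7 passed (0% of all), 1 was under 0.05 unadjusted (the dimmer Cbs, against 2.82%) and the same one was lower without overlap (3.27% of all). For POR-null against WT controls 0 passed (0% of all), and the only one under 0.05 unadjusted (6.79% of all) or lower without overlap (4.86%) was Mpst, through its choice.

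For POR-null against WT on quercetin 0 of 7 passed (0% of all) and 0 were under 0.05 unadjusted, against 2.39% of all, while the dimmer Cbs was lower without overlap (3.74% of all). For the difference of the quercetin responses 0 passed (0% of all) and 1, Mpst, was under 0.05 unadjusted (4.74% of all). That count is description only as well, since both control groups took part in the choice of Mpst. The members' median difference was -0.18 for quercetin in WT mice, with 7 of 7 below 0, against a median of 0 over all probe sets. It was -0.01 for quercetin in POR-null mice (0.01 over all), -0.10 for POR-null against WT controls (-0.01 over all) and 0.01 on quercetin (-0.01 over all). The 7 include Mpst, and Cbs counts with both its probe sets. The medians of comparisons with control arrays, and the 7 of 7 in WT mice, are therefore description only. In WT mice the direction depended on which control arrays were kept. Without WT control arrays 2 and 3, which left array 1 alone in its group, 5 of the 7 differences were above 0. Without array 1 instead, the differences were Mpst -0.88, Tst -0.18, Ethe1 -0.31, Suox -0.10, Cbs -0.34, its second probe set -0.23 and Cth -0.48.

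Further genes of sulfur amino acid and sulfide metabolism came from 7 lists of 44 genes, of which 33 had a probe set of their own, and the brightest one stood for a gene. None passed in any of the 5 comparisons by limma. At an unadjusted p under 0.05 there were 3 for quercetin in WT mice (21 lower and 12 higher, median -0.08), 1 for quercetin in POR-null mice (11 lower and 22 higher, median 0.02), 2 for POR-null against WT controls (18 lower and 15 higher, median -0.06), 1 for POR-null against WT on quercetin (11 lower and 22 higher, median 0.05) and 3 for the difference of the responses. These make up 9.09%, 3.03%, 6.06%, 3.03% and 9.09% of the measured genes, against 5.15%, 2.82%, 6.79%, 2.39% and 4.74% of all probe sets. Without overlap, 2 of the 33 were lower and 2 higher for quercetin in WT mice, and 3 lower and 1 higher for POR-null against WT controls. For quercetin in POR-null mice 0 were lower and 2 higher, and for POR-null against WT on quercetin 0 and 1. Of all probe sets 3.66%, 4.86%, 3.27% and 3.74% were lower without overlap, in the same order. The share of all that was higher without overlap was not computed.

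Dao, the D-amino acid oxidase that can supply 3-mercaptopyruvate from D-cysteine, was, like Mpst, highest on average in WT controls and lowest in POR-null controls, with the quercetin groups between them. Unlike Mpst, Dao had a higher mean in POR-null quercetin arrays (5.40) than in WT quercetin arrays (5.26). The gene had 1 probe set, with a mean of 5.34, below the median signal of every array (5.9 or more). Its signals were 5.65, 5.27 and 5.29 in POR-null quercetin arrays, 5.03, 5.07 and 5.25 in POR-null control arrays, 5.16, 5.37 and 5.26 in WT quercetin arrays, and 5.78, 5.40 and 5.52 in WT control arrays. WT controls lay above POR-null controls and WT quercetin without overlap, and POR-null quercetin lay above POR-null controls without overlap. The log2 differences were -0.45 for POR-null against WT controls (SE 0.13, unadjusted p = 0.00396), -0.30 for quercetin in WT mice (SE 0.13, 0.0348) and 0.29 in POR-null mice (SE 0.13, 0.0442), and by limma the adjusted p were 0.71, 0.957 and 1. The difference of the responses was 0.59 (SE 0.18, adjusted p = 0.998).

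Genes that act beside the members gave differences in both directions. Sqor, the first enzyme of sulfide oxidation, ranged from 11.27 to 11.56 over 12 arrays, with differences from -0.09 to 0.13. Selenbp1, a methanethiol oxidase that releases sulfide, ranged from 11.52 to 12.36 and was at 12.34, 12.27 and 11.94 in POR-null quercetin arrays against 11.76, 11.90 and 12.07 in WT quercetin arrays (difference 0.27, SE 0.19, adjusted p = 0.998 by limma). Its second probe set gave 0.23. The rhodanese-domain gene Tstd2 stood at 5.45 in WT quercetin arrays against 5.05 in WT controls (0.40, SE 0.20, adjusted p = 0.957).

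Txnrd1, the cytosolic thioredoxin reductase, averaged 9.15 in WT quercetin arrays against 9.47 in WT controls (-0.32, SE 0.12, adjusted p = 0.954 by limma), and 9.25 in POR-null controls (-0.22 against WT controls). Its other probe sets gave -0.25 and -0.12 for quercetin in WT mice. For the brightest Txnrd1 probe set, WT control arrays 2 and 3 had 9.58 and 9.59. WT control array 1, at 9.24, lay between WT quercetin values of 9.02 and 9.35. Mtrr, which reactivates methionine synthase, was lower without overlap in both POR-null controls (-0.25) and WT quercetin (-0.17) against the shared WT controls. Iscu, a scaffold for iron-sulfur clusters, was higher without overlap in the same comparisons, with means of 8.92 in POR-null controls and 8.93 in WT quercetin arrays against 8.76 in WT controls (0.15 and 0.16, SE 0.10, adjusted p = 0.782 and 0.957 by limma). Ahcy, which hydrolyses S-adenosylhomocysteine, differed by -0.27 and the mitochondrial dicarboxylate carrier Slc25a10, which also carries sulfate and thiosulfate, by -0.20 for quercetin in WT mice. For both, the higher WT control values came from arrays 2 and 3, with 10.43 and 10.02 for Ahcy and 9.89 and 9.69 for Slc25a10. WT control array 1, at 9.77 for Ahcy and 9.37 for Slc25a10, was not above any WT quercetin array. The molybdenum cofactor gene Mocs1, which Suox depends on, stood at -0.18 there and -0.22 for POR-null against WT controls. Bhmt2, a methyltransferase of the methionine cycle, was dim, with means of 3.31 in POR-null quercetin arrays, 3.43 in POR-null controls, 3.48 in WT quercetin arrays and 3.30 in WT controls. Its differences were 0.18 for quercetin in WT mice (unadjusted p = 0.023, adjusted p = 0.954 by limma), -0.17 for POR-null against WT on quercetin (0.0301, adjusted 0.998) and -0.30 for the difference of the responses (0.00954, adjusted 0.998). Its other probe set gave the opposite signs, -0.12, 0.08 and 0.12.

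**Figure D5:**
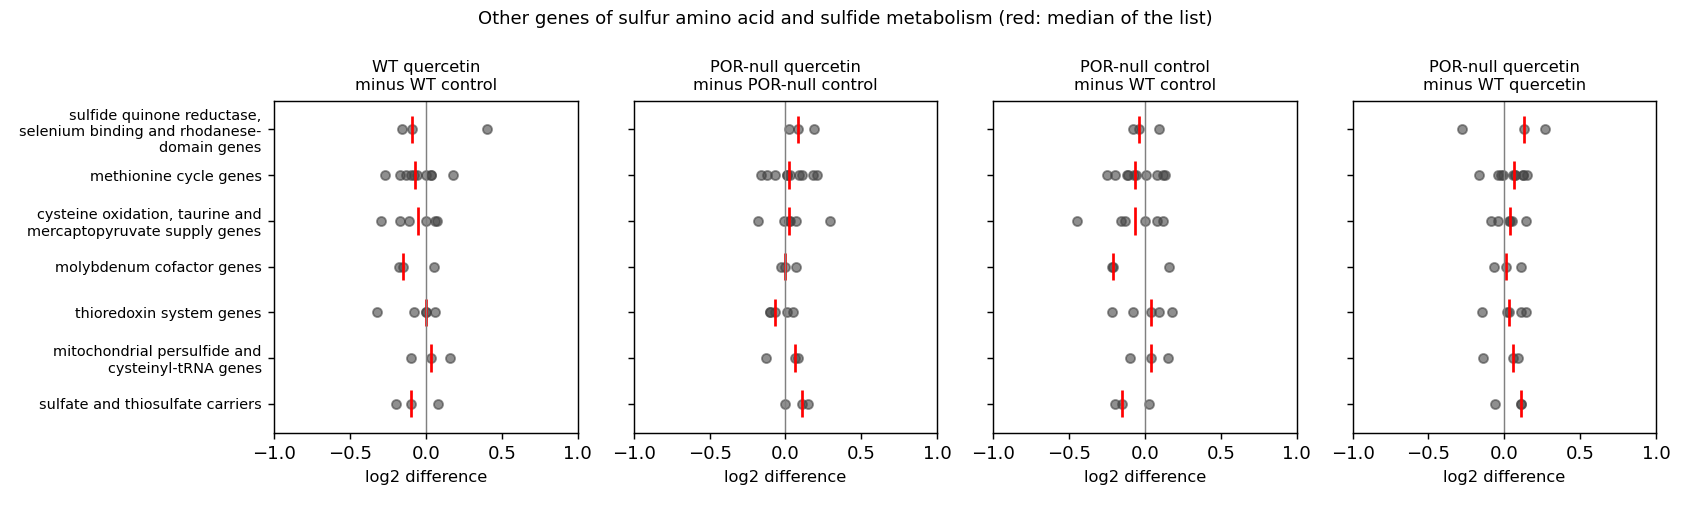
Log2 differences (horizontal) of 33 further genes in 7 lists (vertical), 1 point a gene, with a red line at the median of each list, for the 4 comparisons between groups. The points range over less than 1 log2 unit on either side of 0, with Dao at -0.45 in the third panel and Tstd2 at 0.40 in the first.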

How the data were processed

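Per the labels, biotin-labelled RNA was hybridised to Affymetrix 430A arrays. MAS5 and RMA appear in the submitters' processing notes, with no version or role. The deposited table was read as log2 signal because its values ran from 2.7 to 14.09, and it was not normalized again. Of 22690 probe sets the 64 Affymetrix controls were left out, and no filter on signal was set. Symbols came from the supplied annotation, with 20380 probe sets having 1 symbol, 691 several and 1555 none, and RefSeq (GRCm38.p6) gave neighbours and promoters. For a gene with several probe sets the one of highest mean leads.

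Group means were fitted with limma 3.58.1 in R 4.3.3 (lmFit, then eBayes with trend=TRUE) on all 12 arrays in 1 fit, with 8 residual degrees of freedom and 12.9 in the moderated tests. All p are two-sided, and adjusted p are by Benjamini and Hochberg over 22626 probe sets of a comparison, with a threshold of 0.05. The number of arrays limits the precision. No pair of arrays had over 2.73% of equal values, so none was a duplicate. The code was tested on simulated data. The members, lists and rules for named genes were chosen with earlier results of these data known. Named are all member probe sets, the 5 genes most like and the 3 least like Mpst, and 3 neighbours on each side. List genes were drawn from the up to 2 of smallest unadjusted p per list and comparison. Not all of these are described, with Got1, Cdo1, Txn1 and Slc26a2 among those left out. The marker list regression and leaving out arrays that stand apart were added after values were seen.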

Additional observations from a re-analysis of the deposited data

How the results depend on the processing

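Over 22 alternative settings, 35 member differences gave 733 values, of which 684 kept their sign and 49 reversed. With array weights 399 probe sets were called for POR-null against WT controls, and 1 was a member, Mpst (-1.42), from whose call nothing is read because it was chosen in that comparison. Its difference of responses was then 1.35, 2 probe sets were called for quercetin in WT mice, and Tst was 0.10 for quercetin in POR-null mice and -0.13 for POR-null against WT controls. Without the arrays of pancreatic signal, an alternative chosen after seeing the data, 46 were called for POR-null against WT controls and 1 was again Mpst (-1.20), described only, with Tst at -0.09. There Tst was 0.02, Cbs -0.10 and Cth -0.09 for quercetin in POR-null mice, and Ethe1 -0.02, Cbs -0.02 and Cth -0.13 for POR-null against WT on quercetin. Leaving out WT control arrays 2 and 3, also chosen after seeing the data, left WT control array 1 alone in its group. Quercetin in WT mice then gave Mpst -0.40, Tst 0.17, Ethe1 0.14, Suox 0.19, Cbs 0.14 and Cth 0.31. POR-null against WT controls gave Mpst -0.72, Ethe1 0.17, Cbs 0.22, its second probe set 0.02 and Cth 0.27, and the difference of responses Mpst 0.64, Tst -0.18, Ethe1 -0.17, Cbs -0.12 and Cth -0.23. Quantile normalization gave Tst 0.01 for quercetin in POR-null mice and Ethe1 -0.01 for POR-null against WT on quercetin. The mean of both Cbs probe sets was -0.16 and -0.04 in the same comparisons. With only the groups compared, and with the replicate block, 1 probe set was called for POR-null against WT on quercetin.

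Replicate numbers were not taken as pairs, since the labels give them no shared origin and deviations of same-numbered arrays had a median correlation of 0.04 (-0.19 to 0.26). As a hint from the data the other way, 8 of 12 arrays correlated best with their own number. With the replicate block Mpst was -0.08 for POR-null against WT on quercetin, and the block reversed no member. With each array left out in turn, 0 to 3 probe sets were called for quercetin in WT mice, 0 to 1 in POR-null mice, 0 to 41 for POR-null against WT controls (41 without WT control array 1), 0 to 1 on quercetin and 0 to 1 for the difference of responses, and 0 members. For quercetin in WT mice Tst ran from -0.18 to 0.04 and Suox from -0.10 to 0.14. In POR-null mice Tst ran from -0.10 to 0.11, Ethe1 from -0.10 to 0.06, Cbs from -0.10 to 0.09 and Cth from -0.09 to 0.21. For POR-null against WT controls Mpst ran from -1.20 to -0.82, Tst from -0.09 to 0.13, Cbs from -0.27 to 0.00 and its second probe set from -0.13 to 0.07. On quercetin Mpst ran from -0.23 to 0.10, Ethe1 from -0.06 to 0.10, Cbs from -0.02 to 0.17 and Cth from -0.14 to 0.17, and for the difference of responses Tst ran from -0.05 to 0.18. The cause of these changes was not tested. With 3 pools a group, member differences between groups had SE of 0.12 to 0.22, and differences of responses 0.16 to 0.31.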
